A study of Mus musculus with 64 samples.

Results

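The antioxidant defence of mouse hearts is described here through 10 genes: the transcription factor gene Nfe2l2, which encodes NRF2, and Hmox1, Nqo1, Gclc, Gclm, Txnrd1, Srxn1, Gpx3, Sod2 and Cat. They were chosen by name and are 10 of the 16913 genes in the deposited gene table, all of them measured. NRF2 is held in the cytoplasm by KEAP1, which hands it over for degradation. Oxidants and electrophiles modify KEAP1, NRF2 then enters the nucleus, pairs with a small MAF protein and binds antioxidant response elements of genes for glutathione synthesis, thioredoxin recycling, quinone reduction and heme breakdown. In the heart, whose mitochondria release superoxide and hydrogen peroxide during contraction, these enzymes work beside superoxide dismutases, catalase and glutathione peroxidases.

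All mice were C57BL/6J, either nTG or TG, and TG mice carry cTnT-delta160E, a change in cardiac troponin T that the series uses to model hypertrophic cardiomyopathy. Animals of both genotypes were sedentary or went through high intensity interval training (HIIT). Trained mice ran on a treadmill for 6 weeks, 3 sessions a week of 31 minutes, each with 4 intervals at 85% and 4 at 50% of the speed reached in a graded test, and all animals shared the same strain and feed. The 64 heart libraries, which the labels number as biological replicates, comprised among males 7 nTG sedentary, 8 nTG HIIT, 9 TG sedentary and 8 TG HIIT mice, and among females 8 nTG sedentary, 10 nTG HIIT, 8 TG sedentary and 6 TG HIIT mice. The series text gives 7 to 9 samples per group, against the 6 to 10 of the labels, which are used here. The age of the mice and the promoter of the transgene are not given in the sources used here.

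The gene columns did not hold the libraries that their names give. By name, 32 columns contradicted the labelled sex and 30 the labelled genotype by Tnnt2, the cardiac troponin T gene, and 45 contradicted either. Each lncRNA column was therefore joined to the gene column with which it correlated best over 389 shared transcripts, none of them among the 10 genes. The 64 pairs were mutual best matches at r of 0.599 to 0.863, against at most 0.404 for any next best column. After joining, no library contradicted its sex. Tnnt2 was at 2665 to 3428 CPM in nTG and 6903 to 12001 CPM in TG hearts, here counts divided by the plain library total in M. All later levels in CPM are counts divided by the TMM-scaled library size in M. Totals were 34.6 to 67.1 M counts per library, where M stands for megacounts. Cardiomyocyte markers were present in every library. In 2 TG libraries, the sedentary male replicate 5 and the sedentary female replicate 2, 8 measured blood markers summed to 4662 and 1194 CPM, above the rest of their groups. For the 10 genes, TG HIIT female replicate 3, nTG sedentary female replicate 1 and TG HIIT male replicate 4 stood apart most often, and calls that changed without one of them are stated beside the result.

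Levels per kilobase of merged exons, averaged over the 64 libraries, ran from 111 CPM per kilobase for Gpx3 through 79.2 for Cat, 61.7 for Sod2 and 24 for Nqo1 to 12.5 for Nfe2l2. The remaining genes were at 8.80 for Txnrd1, 7.72 for Srxn1, 4.67 for Hmox1, 4.31 for Gclc and 3.36 CPM per kilobase for Gclm. The enzymes that remove hydrogen peroxide and superoxide directly were thus the most abundant transcripts, and the inducible heme and glutathione enzymes the least abundant. Gclm overlaps Gm17494 on the opposite strand and Txnrd1 overlaps Eid3 on the same strand. Whether reads were counted by strand is not given in the sources used here, but the overlapping genes were at only 1.17 and 0.348 CPM.

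Windows from 250 bases before to 50 bases after a start site were taken from RefSeq (GRCm38.p6). They cover 8 of the 10 genes in 10 windows, all but Hmox1 and Gclc. A short core of the antioxidant response element, TGACNNNGC on either strand, occurred in 4 of the 10 windows, those of Srxn1, Gclm, Nfe2l2 and 1 of the 3 of Txnrd1, in 12.4% of all 32851 windows and in 14.2% of the windows of genes in the gene table. The windows of Nqo1, Sod2, Cat and Gpx3 held none, which says only that these letters are not in them. The 4 windows that hold a core are shown so that its place can be compared. Of the genes with a window, Srxn1, Gclm and Txnrd1 rose in TG hearts over the strata, as did Nqo1, which has no core here, and Nfe2l2 did not pass. Among the others without a core, Sod2 fell and Cat and Gpx3 did not pass. The calls of Gclm and Txnrd1 were lost in 3 and 13 of 64 fits without 1 library. Capitals mark the core, or in the case of the opposite strand its complement as read along the gene. In the Srxn1 window they also mark TGANTCAGC, a form with more fixed letters searched on both strands after the windows had been seen, at -45 to -37 from the start. That form occurred in 1.19% of all windows and in no other window of these genes. A stretch matches both forms where the N of TGANTCAGC is C, which is not the case in Srxn1.
Srxn1, chr2:152105274-152105573, plus strand: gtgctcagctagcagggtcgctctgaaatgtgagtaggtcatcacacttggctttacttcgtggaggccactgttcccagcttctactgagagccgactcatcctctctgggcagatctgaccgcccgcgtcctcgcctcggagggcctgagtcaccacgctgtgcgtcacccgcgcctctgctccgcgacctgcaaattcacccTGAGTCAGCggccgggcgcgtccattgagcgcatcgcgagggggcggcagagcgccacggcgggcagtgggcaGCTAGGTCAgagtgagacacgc
Gclm, chr3:122245307-122245606, plus strand: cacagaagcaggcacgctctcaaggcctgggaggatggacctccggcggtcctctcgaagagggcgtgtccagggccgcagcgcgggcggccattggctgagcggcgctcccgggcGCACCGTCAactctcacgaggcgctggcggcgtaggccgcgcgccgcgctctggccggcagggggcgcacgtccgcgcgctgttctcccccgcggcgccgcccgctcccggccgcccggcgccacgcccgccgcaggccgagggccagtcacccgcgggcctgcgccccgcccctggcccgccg
Txnrd1, chr10:82858956-82859255, plus strand: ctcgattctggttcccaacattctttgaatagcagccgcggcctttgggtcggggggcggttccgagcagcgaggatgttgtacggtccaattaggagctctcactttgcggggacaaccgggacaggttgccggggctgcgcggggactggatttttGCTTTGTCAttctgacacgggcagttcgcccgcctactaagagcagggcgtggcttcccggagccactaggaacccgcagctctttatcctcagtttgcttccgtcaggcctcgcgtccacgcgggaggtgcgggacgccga
Nfe2l2, chr2:75704614-75704913, minus strand: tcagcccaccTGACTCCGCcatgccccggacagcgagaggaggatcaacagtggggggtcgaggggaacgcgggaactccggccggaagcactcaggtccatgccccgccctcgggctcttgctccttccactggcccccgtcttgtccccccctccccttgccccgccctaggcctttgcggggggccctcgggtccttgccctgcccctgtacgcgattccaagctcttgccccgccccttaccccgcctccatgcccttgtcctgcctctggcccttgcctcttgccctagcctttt
The core lay at -240 in Nfe2l2, -134 in Gclm, -92 in Txnrd1 and 29 bases past the start in Srxn1. A match of these letters is a description of the window and not a binding site.

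The question of the genotype comparison is how the transgene changes these genes in each sex and training state. In sedentary males, Hmox1, Srxn1, Gclc and Nqo1 were higher and Sod2 was lower in TG hearts, 5 of the 10 genes at an adjusted p under 0.05, against 20.6% of all genes tested. In HIIT males Hmox1 and Nqo1 were higher and Sod2 was lower, 3 of 10 against 14% of all genes. In sedentary females only Hmox1 passed, 1 of 10 against 4.37%, where DESeq2 called 2, limma voom 4 and the fit of only these 2 groups 0. The shares of all genes that these other fits called were not kept. In HIIT females Hmox1 and Srxn1 were higher and Sod2 was lower, 3 of 10 against 14.8%. The median difference of the 10 genes on the log2 scale was 0.20, 0.08, 0.08 and 0.10 in these 4 strata, and that of all genes lay between -0.0052 and 0.01. Averaged over the 4 strata, 6 genes were higher and 1 was lower, 7 of 10 against 39% of all genes. All adjusted p-values of expression changes are Benjamini-Hochberg adjusted values of edgeR's quasi-likelihood test over the 16913 genes.

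**Figure D1:**
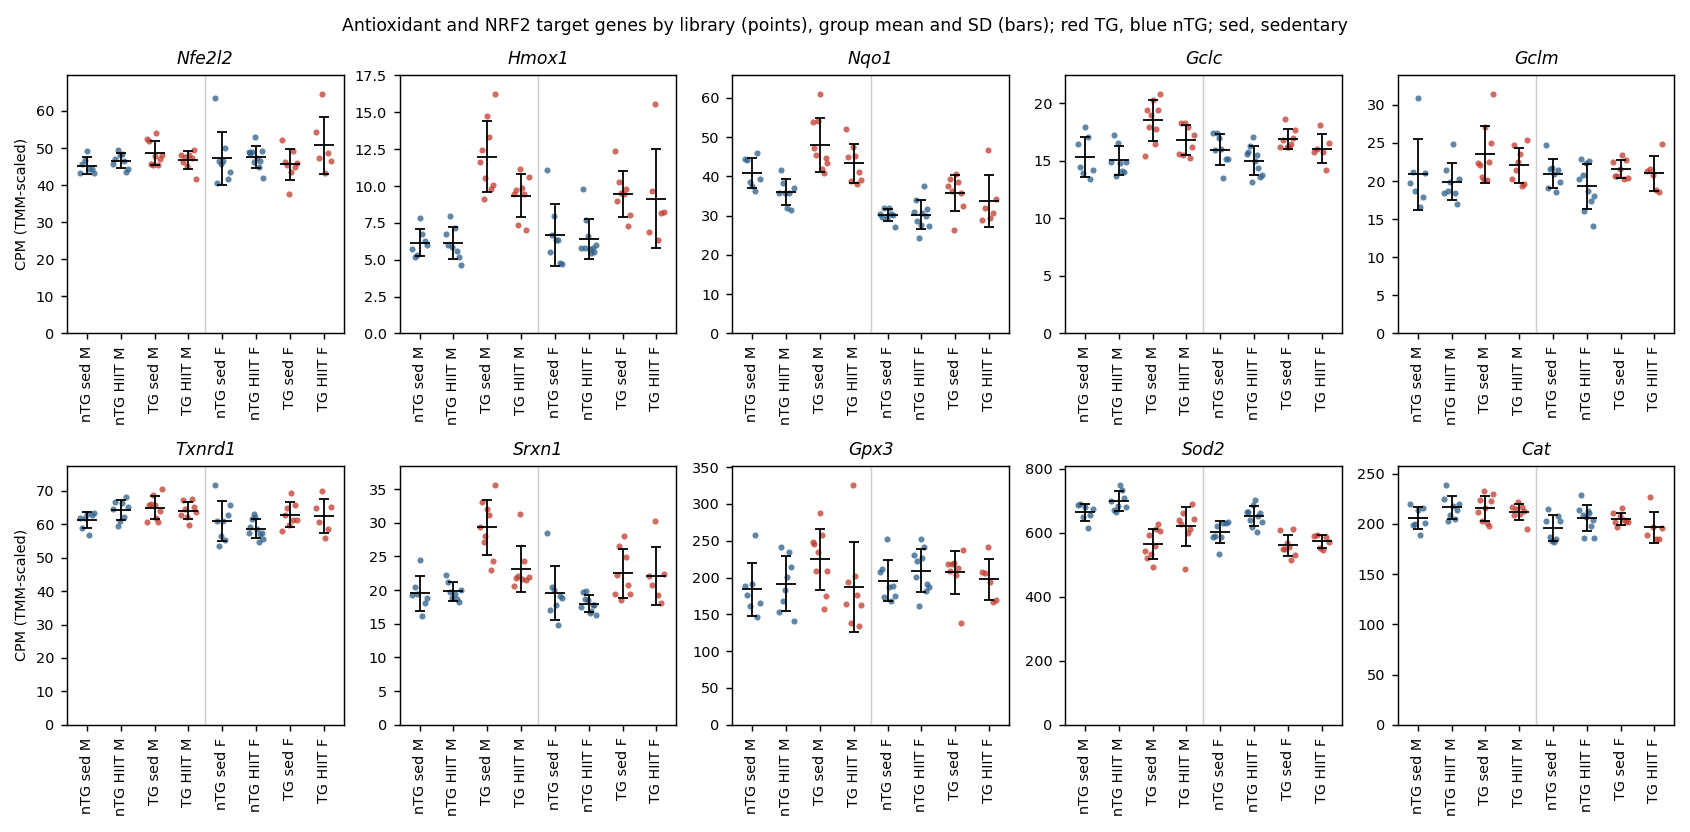
Levels of the 10 genes in CPM (TMM-scaled library sizes, axes from 0) by group, where sed is sedentary, M male and F female; points are libraries, bars the group mean and SD. Hmox1 in TG sedentary males spans 9.09 to 16.3 CPM, above all nTG males, and Sod2 in TG HIIT females spans 546 to 593 CPM, below all nTG HIIT females.

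Hmox1 encodes heme oxygenase 1, which degrades heme to biliverdin, iron and carbon monoxide, and it had the largest genotype difference of the 10 genes in each of the 4 strata. In nTG sedentary males its 7 libraries ranged from 5.16 to 7.81 CPM with a median of 5.99, and in TG sedentary males its 9 libraries ranged from 9.09 to 16.3 CPM with a median of 11.6. The groups did not overlap, and the difference was 0.97 ± 0.15 (log2, SE), from 6.15 ± 0.91 (SD, n = 7) to 12 ± 2.42 CPM (SD, n = 9), with an adjusted p of 3.8e-06 in edgeR's quasi-likelihood test. In HIIT males the nTG libraries ranged from 4.64 to 8.00 CPM (median 5.93) and the TG libraries from 7.03 to 11.2 CPM (median 9.60), with 6 of 8 TG libraries above every nTG library. That difference was 0.60 ± 0.15 with an adjusted p of 0.0035 in edgeR's quasi-likelihood test. The female groups overlapped. Sedentary nTG females ranged from 4.69 to 11.1 CPM (median 6.31) and sedentary TG females from 7.27 to 12.4 CPM (median 9.47). Their difference of 0.50 ± 0.15 had an adjusted p of 0.035 in edgeR's quasi-likelihood test, and this call was lost in 9 of 16 fits that left out 1 library and in the fit of only these 2 groups (0.51, adjusted p = 0.088). Without nTG sedentary female replicate 1 it was 0.65 (adjusted p = 0.0032, edgeR's quasi-likelihood test). HIIT females ranged from 5.43 to 9.80 CPM (median 5.80) in nTG and from 6.35 to 15.5 CPM (median 8.19) in TG. The highest value was that of TG HIIT replicate 3; with it the difference was 0.51 ± 0.15 (adjusted p = 0.016), and without it 0.30 (adjusted p = 0.18), both by edgeR's quasi-likelihood test. That library also had the highest marker sums of its group for macrophages (468 CPM against 398 CPM in the next), fibroblasts (1423 against 1267 CPM), other leukocytes (21.6 against 16.3 CPM) and blood (624.6 against 463 CPM), whose part in its value was not tested. Over the 4 strata Hmox1 rose by 0.64 ± 0.07 (adjusted p = 1.8e-10, edgeR's quasi-likelihood test).

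Srxn1 encodes sulfiredoxin, which returns overoxidised peroxiredoxins to use. Its nTG sedentary male libraries ranged from 16.2 to 24.5 CPM (median 19.2) and the TG sedentary male libraries from 23.0 to 35.6 CPM (median 29.4), with 7 of 9 above every nTG library. The difference was 0.59 ± 0.10 with an adjusted p of 1.3e-05 in edgeR's quasi-likelihood test, the second largest of the 10 genes. In HIIT males it was 0.22 ± 0.10 and in sedentary females 0.20 ± 0.10, and neither passed. HIIT females ranged from 16.3 to 19.9 CPM (median 17.8) in nTG and from 18.1 to 30.2 CPM (median 21.4) in TG, so the groups overlapped in part, with 4 of 6 TG libraries above every nTG library. That difference of 0.30 ± 0.10 had an adjusted p of 0.033, and without TG HIIT female replicate 3 it was 0.20 with an adjusted p of 0.19, both from edgeR's quasi-likelihood test. In all, the call was lost in 4 of 16 fits without 1 library. With the replicate number as a block it was 0.26 and did not pass (adjusted p = 0.088, edgeR's quasi-likelihood test). Over the 4 strata Srxn1 rose by 0.33 ± 0.05, with an adjusted p of 1.6e-07 in edgeR's quasi-likelihood test.

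**Figure D2:**
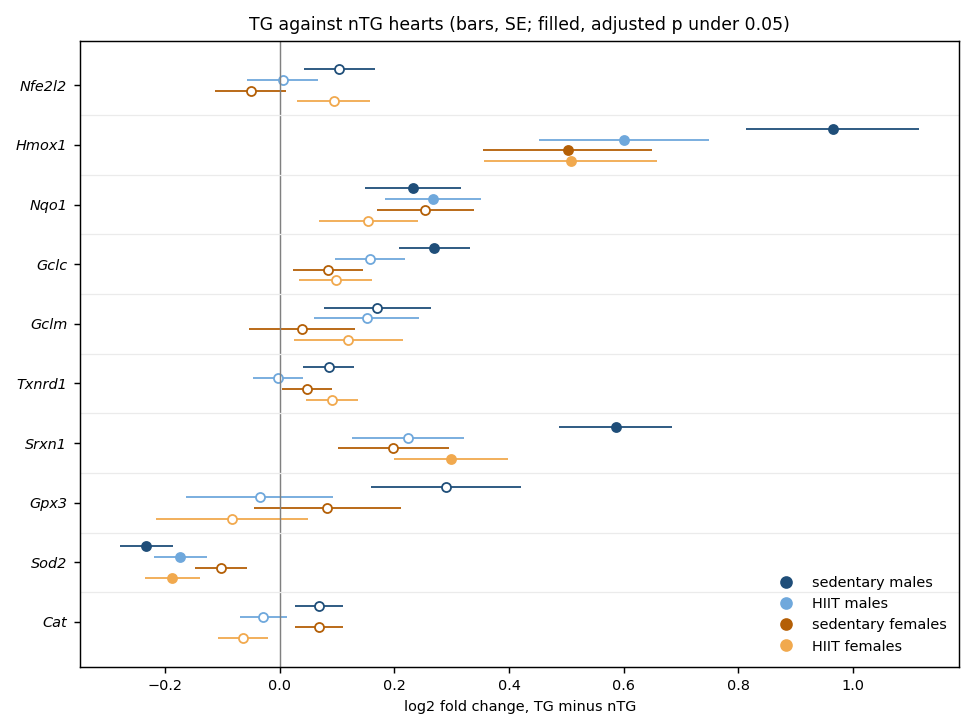
Difference of TG minus nTG hearts on the log2 scale for each gene, with 1 point for each combination of sex and training and bars of 1 SE; filled points had an adjusted p under 0.05. Hmox1 lies to the right of 0 in all 4 strata (0.50 to 0.97) and Sod2 to the left in all 4 (-0.23 to -0.10), while Nfe2l2 and Cat sit on both sides of 0.

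Nqo1 encodes a quinone reductase that is widely used as a reporter of NRF2 activity. In sedentary males it ranged from 36.3 to 46.1 CPM (median 39.4) in nTG and from 40.7 to 61 CPM (median 45.4) in TG hearts, with 4 of 9 TG libraries above every nTG library. The difference was 0.23 ± 0.08 with an adjusted p of 0.040 in edgeR's quasi-likelihood test. This call was lost in 8 of 16 fits without 1 library, and without the 2 libraries of high blood level the difference was 0.19 (adjusted p = 0.11, edgeR's quasi-likelihood test). With the library number as a covariate it was 0.22 (adjusted p = 0.052). In HIIT males Nqo1 ranged from 31.5 to 41.6 CPM (median 35.8) in nTG and from 38 to 52 CPM (median 43) in TG. The difference of 0.27 ± 0.08 had an adjusted p of 0.023 in edgeR's quasi-likelihood test, and the call was lost in 4 of 16 fits without 1 library, among them that without TG HIIT male replicate 4 (0.25, adjusted p = 0.055). In females the differences of 0.25 ± 0.08 (sedentary) and 0.15 ± 0.09 (HIIT) did not pass. In sedentary females 7 of 8 TG libraries were above every nTG library (adjusted p = 0.069), and without TG sedentary female replicate 4 the difference was 0.31 and passed (adjusted p = 0.019, edgeR's quasi-likelihood test). The mean over the strata was 0.23 ± 0.04 with an adjusted p of 1.2e-05 in edgeR's quasi-likelihood test.

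Gclc and Gclm encode the catalytic and the modifier subunit of glutamate-cysteine ligase, the first step of glutathione synthesis. In sedentary males Gclc ranged from 13.4 to 17.9 CPM (median 14.5) in nTG and from 15.5 to 20.8 CPM (median 19) in TG hearts, with 6 of 9 TG libraries above every nTG library. It rose by 0.27 ± 0.06 (adjusted p = 0.0010, edgeR's quasi-likelihood test), and by 0.15 ± 0.03 over the strata (adjusted p = 5.8e-05). Gclm did not pass in any single stratum, where its differences were 0.04 to 0.17. Without nTG sedentary male replicate 4, Gclm passed in sedentary males (0.29, adjusted p = 0.015, edgeR's quasi-likelihood test). Its mean difference of 0.12 ± 0.05 passed in edgeR's quasi-likelihood test with an adjusted p of 0.035 and was lost in 3 of 64 fits without 1 library and with the replicate block (adjusted p = 0.051). Its group medians in CPM were 19.8 in nTG and 22.4 in TG for sedentary males, 19.3 and 22 for HIIT males, 21.2 and 21.1 for sedentary females and 19.4 and 21.1 for HIIT females. Txnrd1, the cytosolic thioredoxin reductase, had differences of -0.0029 to 0.09 in the strata. Its mean difference of 0.06 ± 0.02 had an adjusted p of 0.042 in edgeR's quasi-likelihood test, and was lost in 13 of 64 fits without 1 library and with the replicate block (adjusted p = 0.068).

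Sod2, the manganese superoxide dismutase of the mitochondrial matrix, moved the other way. In sedentary males it ranged from 615 to 688 CPM (median 673) in nTG and from 494 to 626 CPM (median 559) in TG hearts, with 8 of 9 TG libraries below every nTG library. The difference was -0.23 ± 0.05 with an adjusted p of 1.7e-04 in edgeR's quasi-likelihood test. In HIIT males it ranged from 665 to 749 CPM (median 691) in nTG and from 485 to 689 CPM (median 633) in TG hearts, a difference of -0.17 ± 0.05 (adjusted p = 0.0065, edgeR's quasi-likelihood test). In HIIT females it ranged from 603 to 703 CPM (median 657) in nTG and from 546 to 593 CPM (median 578) in TG hearts. These groups did not overlap, and the difference was -0.19 ± 0.05 (adjusted p = 0.0046, edgeR's quasi-likelihood test). In sedentary females the difference of -0.10 ± 0.05 did not pass (adjusted p = 0.23, edgeR's quasi-likelihood test). The mean over the strata was -0.17 ± 0.02 with an adjusted p of 9.3e-09 in edgeR's quasi-likelihood test.

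Nfe2l2 itself passed in no genotype comparison. Its medians were 44.5 CPM in nTG and 48 CPM in TG sedentary males, 46.7 and 47.5 CPM in HIIT males, 46.1 and 45.7 CPM in sedentary females and 48.1 and 48 CPM in HIIT females. The mean difference was 0.04 ± 0.03, with an adjusted p of 0.36 in edgeR's quasi-likelihood test. NRF2 is controlled largely through its protein, which these data do not measure. Cat, the peroxisomal catalase, had a mean difference of 0.01 ± 0.02 and group means between 196 and 216 CPM. Gpx3, the secreted glutathione peroxidase, had a mean difference of 0.06 ± 0.06; its libraries in TG sedentary males ranged from 157 to 288 CPM and those in nTG sedentary males from 147 to 259 CPM. Neither passed in any stratum with all libraries. In sedentary males Gpx3 passed without nTG replicate 5 (0.40, adjusted p = 0.022) and without TG replicate 7 (0.34, adjusted p = 0.048), by edgeR's quasi-likelihood test.

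No test of a difference between effects passed for any of the 10 genes. In sedentary mice the genotype effect of females minus that of males was -0.46 ± 0.21 for Hmox1 (adjusted p = 0.54) and -0.39 ± 0.14 for Srxn1 (adjusted p = 0.47) in edgeR's quasi-likelihood test. Here 3 of the 10 genes had an unadjusted p under 0.05, against 8.7% of all genes, DESeq2 and limma voom also called 0 of 10, and edgeR called 0% of all genes. The genotype by training term of males gave -0.36 ± 0.14 for Srxn1 (adjusted p = 0.22) and -0.36 ± 0.21 for Hmox1 (adjusted p = 0.42), with 1 of 10 at an unadjusted p under 0.05, against 14.8% of all genes, and 0 of 10 called by any of the 3 tools. In females the same term gave 0.10 ± 0.14 for Srxn1 and 0.0050 ± 0.21 for Hmox1, again with 1 of 10 at an unadjusted p under 0.05, against 6.46% of all genes, and 0 called by any of the 3 tools. In sedentary mice, a genotype effect that passed in males and missed the threshold in females was therefore not shown to differ between the sexes, and in HIIT mice that difference was not tested.

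Training was compared with sedentary housing within each genotype and sex. In TG males, Srxn1 was lower and Sod2 was higher after HIIT, 2 of the 10 genes against 18% of all genes, and the median difference of the 10 genes was -0.12 on the log2 scale against 6.7e-05 for all genes. Srxn1 ranged from 23.0 to 35.6 CPM (median 29.4) in sedentary and from 20.6 to 31.3 CPM (median 21.8) in HIIT hearts, with 6 of 8 HIIT libraries below every sedentary library and replicate 4 at 31.3 CPM against 24.4 CPM for the next. It fell by 0.34 ± 0.09 on the log2 scale (adjusted p = 0.0093, edgeR's quasi-likelihood test). Sod2 ranged from 494 to 626 CPM (median 559) in sedentary and from 485 to 689 CPM (median 633) in HIIT hearts. It rose by 0.13 ± 0.04 (adjusted p = 0.031, edgeR's quasi-likelihood test), a call lost in 10 of 17 fits without 1 library and without the 2 libraries of high blood level, where it was 0.10 (adjusted p = 0.098). The fit of only these 2 groups also ended it (0.13, adjusted p = 0.14, edgeR's quasi-likelihood test).

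TG HIIT male replicate 4 had the highest Gpx3 (326 CPM) and the lowest Sod2 (485 CPM) of its group, with the highest fibroblast and macrophage marker sums (1960 and 497 CPM). Without it, 5 of the 10 genes passed in TG males, against 24% of all genes in that fit: Srxn1 fell by 0.43 and Sod2 rose by 0.17, and Hmox1 (-0.42, adjusted p = 0.034), Gpx3 (-0.44, adjusted p = 0.0048) and Gclc (-0.17, adjusted p = 0.038) passed as well in edgeR's quasi-likelihood test. With all libraries Hmox1 ranged from 9.09 to 16.3 CPM in sedentary and from 7.03 to 11.2 CPM in HIIT TG males, a difference of -0.36 ± 0.14 (adjusted p = 0.063, edgeR's quasi-likelihood test), which passed in DESeq2 (adjusted p = 0.039), in limma voom (adjusted p = 0.012) and in the fit of only these 2 groups (adjusted p = 0.036). In TG males 9 of the 10 estimates were negative, with Sod2 the exception. The sedentary TG males are the same animals that gave the genotype difference of sedentary males, so the 2 sets of values share them.

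Marker genes of several cell types also differed between trained and sedentary TG males. Of 10 macrophage markers 5 were lower after HIIT (median -0.26), with summed levels of 291 to 500 CPM (median 415) in sedentary and 287 to 497 CPM (median 330) in HIIT hearts. Fibroblast markers were lower for 2 of 10 genes (median -0.20), with sums of 899 to 1570 CPM (median 1385) and 855 to 1960 CPM (median 1014). Endothelial markers were lower for 4 of 10 genes and blood genes for 6 of 8, the blood sums being 304 to 4662 CPM (median 565) in sedentary and 272 to 572 CPM (median 398) in HIIT hearts. Cardiomyocyte markers were higher for 2 of 10 genes (median 0.09), with sums of 106016 to 124956 CPM (median 111854) and 107571 to 130782 CPM (median 121199). These counts are calls of edgeR's quasi-likelihood test, against 18% of all genes, and their part in the changes of Srxn1 and Sod2 was not tested.

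**Figure D3:**
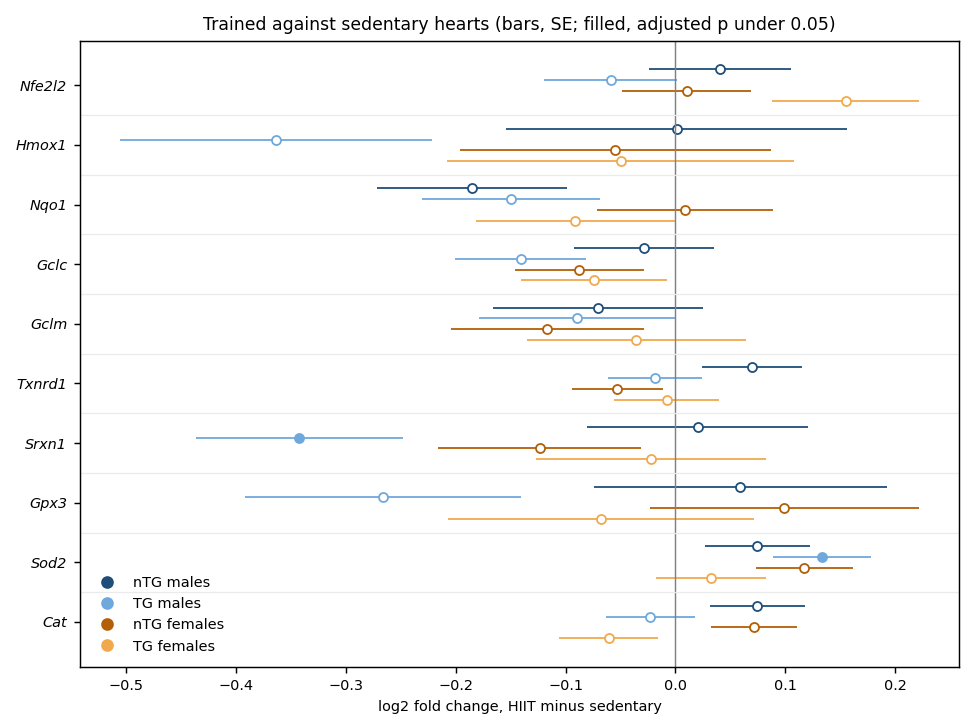
Difference of HIIT minus sedentary hearts on the log2 scale for each gene, with 1 point for each combination of genotype and sex and bars of 1 SE; filled points had an adjusted p under 0.05. Filled points occur in TG males only, for Srxn1 at -0.34 and Sod2 at 0.13.

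In the other groups edgeR's quasi-likelihood test called 0 of the 10 genes after training. Of all genes it called 0% in nTG males, 0.148% in nTG females and 0% in TG females. At an unadjusted p under 0.05 it found 1 of 10 in each, against 5.91%, 14.2% and 3.58% of all genes. DESeq2 and limma voom also called 0 of 10 in each of the 3. The gene at an unadjusted p under 0.05 was Nqo1 in nTG males (-0.18 ± 0.09), Sod2 in nTG females (0.12 ± 0.04) and Nfe2l2 in TG females (0.15 ± 0.07). Sod2 was positive in all 4 training comparisons, at 0.07, 0.13, 0.12 and 0.03 in nTG males, TG males, nTG females and TG females. Averaged over the sexes, 0 of 10 passed in nTG (2 at an unadjusted p under 0.05, against 12.7% of all genes, with 0.384% of all genes called) and 0 of 10 in TG mice (3 at an unadjusted p under 0.05, against 19.2% of all genes, with 0.52% of all genes called). Without TG HIIT male replicate 4, Srxn1 (-0.23, adjusted p = 0.045) and Sod2 (0.10, adjusted p = 0.035) passed in TG mice by edgeR's quasi-likelihood test. In TG mice limma voom with sample quality weights called 6 of 10 and DESeq2 called 0, and in nTG mice both called 0. The shares of all genes that these tools called were not kept, so the 6 of 10 has no background to be set against. The test of whether training acted differently in TG females and TG males called 0 of 10, with 2 at an unadjusted p under 0.05, against 18.1% of all genes, 0% of all genes called, and 0 by DESeq2 and limma voom.

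Nqo1 differed between the sexes. In nTG sedentary mice it ranged from 36.3 to 46.1 CPM (median 39.4) in males and from 27 to 32 CPM (median 30.2) in females, with no overlap. The female minus male difference was -0.44 ± 0.09 with an adjusted p of 0.0011 in edgeR's quasi-likelihood test, the only call among the 10 genes, against 2.22% of all genes. It was -0.42 ± 0.08 in TG sedentary mice (adjusted p = 8.5e-04), where all 8 females were below all 9 males, and -0.36 ± 0.09 in TG HIIT mice (adjusted p = 0.019), by edgeR's quasi-likelihood test in comparisons added after the values were seen. In nTG HIIT mice it was -0.25 ± 0.08 and did not pass (adjusted p = 0.078), although 7 of 10 females were below every male. Srxn1 was lower in females among TG sedentary mice (-0.38 ± 0.09, adjusted p = 0.012, edgeR's quasi-likelihood test), so that 2 of 10 genes were called there, against 3.83% of all genes. In TG HIIT mice Nqo1 was the 1 gene called, against 2.29% of all genes, and in nTG HIIT mice 0 were called, with 3 at an unadjusted p under 0.05, against 15.8% of all genes, where 2.4% of all genes were called. Males hold library numbers 1 to 32 and females 33 to 64, and with the library number as a covariate the difference in nTG sedentary mice was -0.29 (adjusted p = 0.14, edgeR's quasi-likelihood test). A shift along the library numbers and sex therefore cannot be told apart.

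The order of the 8 group means was led by TG sedentary males for 7 of the 10 genes. The exceptions were Nfe2l2, highest in TG HIIT females, and Sod2 and Cat, highest in nTG HIIT males. The ratio of the highest to the lowest group mean was 1.95 for Hmox1, 1.63 for Srxn1, 1.60 for Nqo1 and 1.25 for Sod2, and between 1.11 and 1.23 for the other 6 genes. Between neighbours in the order, 6 of 7 steps for Hmox1, Nqo1, Srxn1 and Sod2 and 7 of 7 for the other genes were smaller than 1 SD. Within groups the coefficient of variation averaged 21.7% for Hmox1, 18.3% for Gpx3 and 14% for Srxn1, and 5.53% to 5.83% for Cat, Sod2 and Txnrd1.

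Whether the target transcripts varied with the Nfe2l2 transcript among animals of a group was examined on log2 CPM (pseudocount 0.5) as deviations from the 8 group means, over 64 libraries and 9 relations. Hmox1 (Pearson's r = 0.54, adjusted permutation p = 0.0032; Spearman's rho = 0.37, adjusted p = 0.047) and Srxn1 (r = 0.49, adjusted permutation p = 0.0084; rho = 0.35, adjusted p = 0.047) passed, in two-sided tests with 100000 draws. The other 7 genes had r of 0.0019 to 0.31 and did not pass. With plain library totals in place of TMM scaling 6 of 9 passed by r, with Nqo1, Gclc, Txnrd1 and Gpx3 added, and 3 by rho, Hmox1, Srxn1 and Gpx3. By Pearson's r the relation rests on 2 libraries, TG HIIT female replicate 3 and nTG sedentary female replicate 1, where Nfe2l2 was at 64.7 and 63.4 CPM against 37.6 to 54.3 CPM in all others. Without them r was 0.28 for Hmox1 and 0.21 for Srxn1. Spearman's rho was then 0.32 for Hmox1 (permutation p = 0.019, adjusted p = 0.17) and 0.22 for Srxn1 (permutation p = 0.10, adjusted p = 0.47), so rho of Hmox1 changed little, and 0 of 9 relations passed after adjustment by either measure. Within males r was 0.26 and 0.31 and 0 of 9 passed, and within females, who hold both libraries, it was 0.65 for Hmox1 and 0.58 for Srxn1, where 3 of 9 passed by Pearson's r (adjusted permutation p = 0.011 for Hmox1, 0.034 for Srxn1 and 0.042 for Nqo1) and 0 by Spearman's rho.

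**Figure D4:**
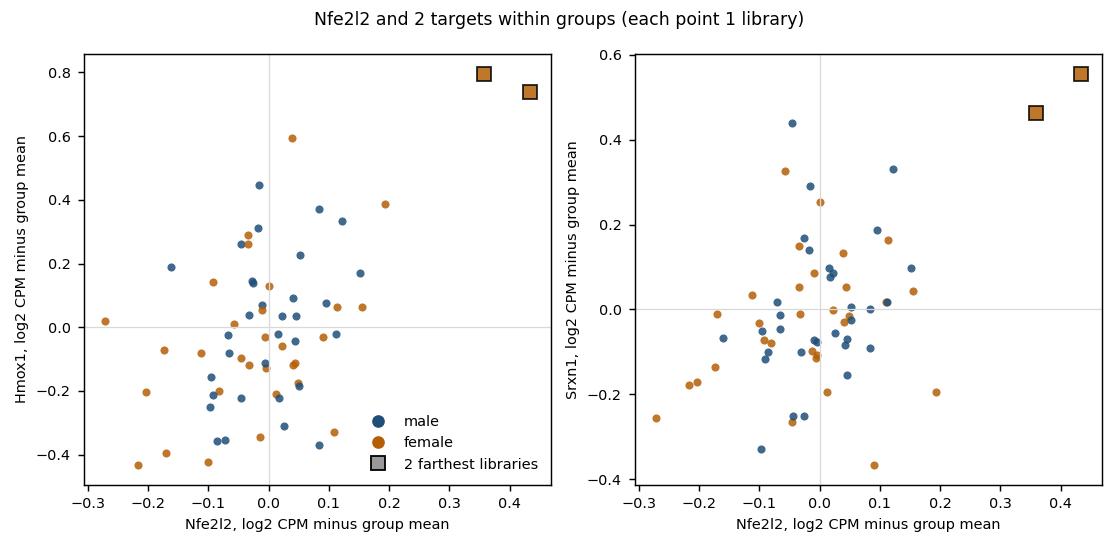
Deviation of log2 CPM from the group mean for Nfe2l2 (horizontal) and for Hmox1 or Srxn1 (vertical); each point is 1 of 64 libraries, blue for males and orange for females. The 2 libraries drawn as squares lie apart at the upper right, and without them r is 0.28 for Hmox1 and 0.21 for Srxn1.

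Among the 10 genes themselves, the largest within-group correlations over the 64 libraries were 0.59 between Gclc and Gclm, the subunits of 1 enzyme, 0.58 between Hmox1 and Srxn1, 0.56 between Txnrd1 and Srxn1 and -0.59 between Gpx3 and Sod2. Over all 64 libraries and 12045 genes with at least 50 counts on average, the genes most like Hmox1 were Ftl1, the ferritin light chain (r = 0.88), Csf1r, the macrophage receptor for colony stimulating factor (r = 0.86), and Lgmn, a lysosomal protease (r = 0.84). For Sod2 they were Slc25a3, Dlst and Atp5a1 (r = 0.95, 0.94 and 0.93), which serve phosphate import, the citric acid cycle and ATP synthesis in mitochondria. For Gclm they were Sqstm1, Ftl1 and Bach1 (r = 0.70, 0.59 and 0.56), for Gclc Ftl1, Sqstm1 and Dse (0.70, 0.63 and 0.63), and for Srxn1 Nid1, Pla1a and Trim16 (0.81, 0.80 and 0.80). For Nqo1 and Cat the list held Nrap, a protein of cardiac intercalated discs and myofibrils (r = 0.81 and 0.64), and for Nfe2l2 it was led by the heat shock genes Hspa1b and Hspa1a (0.66 and 0.66), near-identical copies whose counts are uncertain. For Gpx3 it was led by Podn (r = 0.77) and for Txnrd1 by Slc30a4 (0.59). These correlations over all libraries describe shared libraries and group differences. As deviations from the group means, r was 0.73, 0.70 and 0.75 for Hmox1 with Ftl1, Csf1r and Lgmn. For Sod2 with its 3 genes it was 0.87, 0.87 and 0.89, and for Srxn1 with its 3 genes 0.57, 0.61 and 0.67. None of these values carries a test.

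Other genes of the pathway were followed in 9 lists of 143 genes, of which 138 were measured. Over the 4 strata 38 were higher and 49 lower in TG hearts, 63% against 39% of all genes, and no list moved in 1 direction only. Among 15 regulators, 5 rose and 3 fell, with a median of -0.0027, where 18.5% of all genes rose and 20.5% fell. Mafg, a small MAF partner of NRF2, rose by 0.58 ± 0.03 and was higher in each stratum (adjusted p = 2.0e-26 over the strata). Bach2, a repressor that competes at the same elements, rose by 0.29 ± 0.05, while Nfe2l1, the related factor NRF1, fell by 0.13 ± 0.02. These and the following pathway values are means over the strata that passed in edgeR's quasi-likelihood test with Benjamini-Hochberg adjustment.

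Of 27 measured glutathione genes 5 rose and 12 fell (median -0.07). This and the following list counts stand against 18.5% of all genes higher and 20.5% lower. Gsto1 and Gstm7, glutathione transferases, fell by 0.33 ± 0.02 and 0.39 ± 0.04 and passed in each of the 4 strata. Gpx1, the cytosolic glutathione peroxidase, rose by 0.19 ± 0.04, and among the single strata it passed only in sedentary males (0.38). Of 18 thioredoxin genes 1 rose and 9 fell (median -0.07): Prdx1 rose by 0.11 ± 0.03, and the mitochondrial Prdx5 and Msrb2 fell by 0.23 ± 0.03 and 0.28 ± 0.03. Among the single strata Prdx1 passed only in HIIT males (0.21). All 6 superoxide genes passed, 2 upward and 4 downward (median -0.13), with the extracellular Sod3 up by 0.14 ± 0.05 and the cytosolic Sod1 down by 0.14 ± 0.03. Among the single strata Sod3 passed only in sedentary males (0.32) and was at -0.08 in HIIT males. Sod1 passed in sedentary males (-0.26) and HIIT females (-0.20), and was at -0.04 in HIIT males. Nnt, the mitochondrial transhydrogenase, fell by 0.22 ± 0.04, but it has 2 identifiers at 1 locus and its counts are uncertain. The value is that of the identifier with more counts (232 against 201 CPM), and the change of the other is not given here.

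Of 10 NADPH genes 3 rose and 4 fell (median 0.02), and for the lists here too 18.5% of all genes were higher and 20.5% lower. The pentose phosphate enzymes Tkt and G6pdx rose by 0.16 ± 0.03 and 0.17 ± 0.04, and the isocitrate dehydrogenases Idh2 and Idh1 fell by 0.29 ± 0.03 and 0.17 ± 0.03. Among the single strata Tkt, G6pdx and Idh1 passed only in sedentary males (0.30, 0.22 and -0.20). Of 19 measured detoxification genes 8 rose and 5 fell (median 0.12), with Akr1b8, an aldo-keto reductase, up by 0.49 ± 0.07, the exporter Abcc4 up by 0.22 ± 0.03 and Nqo2 down by 0.23 ± 0.03. Of 12 measured heme and iron genes 2 rose, near the share of all genes, and 5 fell (median -0.02). Ftl1 rose by 0.35 ± 0.04 and passed in each stratum, and Hmox2, the constitutive heme oxygenase, fell by 0.15 ± 0.02.

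Of 15 genes for selenoprotein synthesis and carriers 4 rose and 5 fell (median -0.03), against 18.5% of all genes higher and 20.5% lower. Lrp8, a selenoprotein P receptor, was up by 0.70 ± 0.16 and Sephs2 down by 0.10 ± 0.02. Among the single strata Lrp8 passed only in sedentary males (1.12) and Sephs2 only in HIIT males (-0.16). Of 16 measured sources of oxidants 8 rose and 2 fell (median 0.18). Maoa, the monoamine oxidase A of the outer mitochondrial membrane, rose by 0.71 ± 0.06, from 3.28 to 5.37 CPM on average, and Maob fell by 0.21 ± 0.03. Nos1, the neuronal nitric oxide synthase, rose by 2.14 ± 0.18, from 1.45 to 6.59 CPM on average.

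After training, 0 of the 138 pathway genes passed in edgeR's quasi-likelihood test in nTG males, nTG females or TG females (12, 23 and 8 of 138 at an unadjusted p under 0.05, against 5.91%, 14.2% and 3.58% of all genes), while 19 were higher and 16 lower in TG males, 25.4% against 18% of all genes. There Ftl1 fell by 0.32 ± 0.07, Mafg by 0.18 ± 0.05, Sod3 by 0.31 ± 0.10, Tkt by 0.20 ± 0.06 and the selenoprotein gene Selenom by 0.24 ± 0.07 on the log2 scale. Nnt, whose counts are uncertain, rose by 0.24 ± 0.07, Sod1 by 0.15 ± 0.05, Nqo2 by 0.24 ± 0.05, Maob by 0.25 ± 0.05, Idh1 by 0.20 ± 0.06, Prdx1 by 0.19 ± 0.07 and the selenoprotein gene Selenos by 0.23 ± 0.07. Each of these 12 genes passed in edgeR's quasi-likelihood test, and they are all those that did among the 35 genes that the naming rule of the lists gave. The TG sedentary males also enter the genotype comparison of sedentary males, in which Ftl1 was at 0.57, Mafg at 0.65, Sod3 at 0.32, Tkt at 0.30, Selenom at 0.28, Nnt at -0.37, Sod1 at -0.26, Nqo2 at -0.27, Maob at -0.29, Idh1 at -0.20 and Selenos at -0.29. Prdx1 was at 0.02 there, the same sign as its training difference, and did not pass (adjusted p = 0.91, edgeR's quasi-likelihood test).

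**Figure D5:**
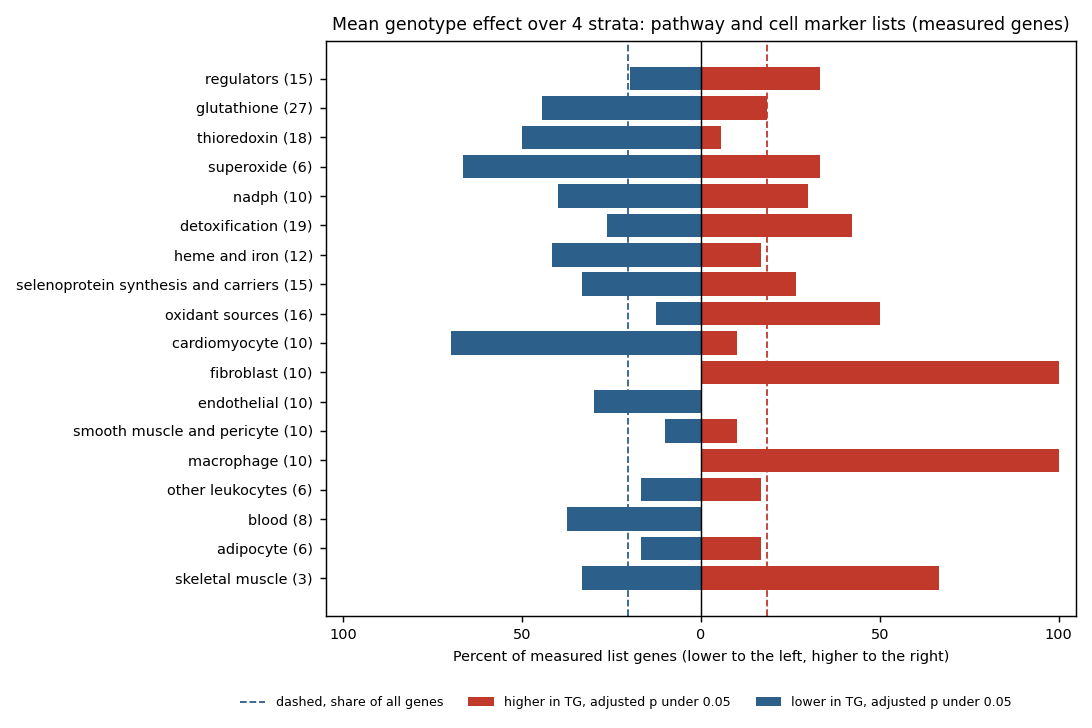
Percent of the measured genes of each list (number in brackets) that were higher (right, red) or lower (left, blue) in TG hearts on average over the 4 strata; dashed lines mark the share of all genes, 18.5% higher and 20.5% lower. Superoxide and thioredoxin genes reach mainly to the left, oxidant sources to the right, and all 10 fibroblast and all 10 macrophage markers were higher.

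In whole hearts, fewer cells of a type and less RNA per cell cannot be told apart. Of 10 macrophage markers, 10 were higher in TG sedentary males, 7 in HIIT males, 0 in sedentary females (1 at an unadjusted p under 0.05, edgeR) and 8 in HIIT females. The shares of all genes called in these strata were 20.6%, 14%, 4.37% and 14.8%. Hmox1 was called in each of them, but not firmly in females. In sedentary females its call was lost in 9 of 16 fits without 1 library and in the fit of only these 2 groups. In HIIT females it was lost without TG HIIT female replicate 3. The summed level of the macrophage markers was 223 to 306 CPM in nTG and 291 to 500 CPM in TG sedentary males, 216 to 288 and 287 to 497 CPM in HIIT males, 276 to 408 and 286 to 432 CPM in sedentary females (medians 303 and 355), and 248 to 346 and 319 to 468 CPM in HIIT females. Fibroblast markers were higher for 9, 5, 1 and 5 of 10 genes in the same strata. Of 10 cardiomyocyte markers, 7 were lower and 1 was higher over the strata (median -0.13), against 20.5% of all genes lower and 18.5% higher. In the single strata 5, 3, 1 and 4 were lower. The median of their summed level was 117238 CPM in nTG and 111854 CPM in TG sedentary males, 119254 and 121199 CPM in HIIT males, 112649 and 115650 CPM in sedentary females and 117519 and 119640 CPM in HIIT females, within 103125 to 137934 CPM in all libraries. None of the markers of these 3 lists was at 0 in any group. Their part in the results was not tested.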

How the data were processed

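RNA sequencing of 64 mouse hearts was analysed from 2 deposited tables. Per the submitters' processing notes, the authors used cutadapt 2.3, FastQC 0.11.8, MultiQC 1.7, STAR 2.7.8a and RSEM 1.3.3 with GRCm38 (mm10); the role of each is not given in the sources used here. The authors deposited counts per Ensembl gene, not normalised, in the gene table. The authors deposited expected counts (estimated counts) in the lncRNA table, which served only to match columns (log2 CPM, pseudocount 0.5). GENCODE M21 gave symbols to 16879 of 16913 genes.

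Counts were tested with edgeR 4.0.16 (quasi-likelihood F test, TMM scaling, 8 group means, all libraries in the fit) at a Benjamini-Hochberg adjusted p under 0.05 over all genes. The low-count filter filterByExpr removed 0 genes. The 10 genes, the pathway and marker lists and the tests were chosen with earlier results of these data known. In each pathway list, the 2 genes of smallest p in each direction over the strata could be named, and the 3 genes of highest Pearson's r with each of the 10. Same-numbered replicates did not deviate together, so the block stayed an alternative. Others were DESeq2 1.42.0, limma 3.58.1 voom, median-of-ratios size factors, no filter, a mean of at least 1 CPM, only the groups compared, library number, columns by name, leaving out each library, and, added after seeing the data, leaving out the 2 libraries of high blood level. The tests recovered known changes in simulated data, but those changes were larger than most of the differences reported here. The simulation therefore says nothing about differences of the smaller size. The spread between mice sets the precision; the sources do not say whether the animals of a group were littermates.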

Additional observations from a re-analysis of the deposited data

Results flagged for a closer look

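A library far from the others of its group was found in 15 of 80 combinations of gene and group by Dixon's criterion, where chance gives about 1 in 20, or 4. TG HIIT female replicate 3 accounts for 3 of them: Hmox1 at 15.5 CPM against 6.35 to 9.70 CPM in the others, Nqo1 at 46.8 against 29 to 34.3 CPM, and Srxn1 at 30.2 against 18.1 to 22.3 CPM. TG HIIT male replicate 4 accounts for another 3, with Srxn1 at 31.3 against 20.6 to 24.4 CPM, Gpx3 at 326 against 134 to 202 CPM, and Sod2 at 485 against 600 to 689 CPM. In nTG sedentary female replicate 1, Nfe2l2 was at 63.4 against 40.6 to 49.9 CPM and Srxn1 at 28.5 against 14.8 to 20.5 CPM.

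The other 7 were spread over 7 libraries. Hmox1 was high in nTG HIIT female replicate 2, at 9.80 CPM against 5.43 to 7.68 CPM. Gclm was high in nTG sedentary male replicate 4, at 30.8 against 16.6 to 21.2 CPM, and without that library Gclm passed in sedentary males (0.29, adjusted p = 0.015, edgeR). Gpx3 was high in nTG sedentary male replicate 5, at 258.5 against 147 to 191 CPM, without which it passed there as well (0.40, adjusted p = 0.022, edgeR), and low in TG sedentary female replicate 7, at 138 against 203 to 238 CPM. Sod2 was low in nTG sedentary female replicate 4, at 534 against 587 to 633 CPM. Cat was low in TG HIIT male replicate 8, at 195 against 209 to 221 CPM, and high in TG HIIT female replicate 2, at 226 against 185 to 197 CPM.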

How the results depend on the processing

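The assignment of gene columns mattered most. With gene columns taken by name, 0 of the 10 genes were called in each of the 5 genotype comparisons, in the training of TG males and between the sexes (nTG sedentary mice), and 2 in the training of nTG mice averaged over sexes (Hmox1 0.59, Srxn1 0.27). Estimates then reversed for Hmox1 in HIIT males (-0.18), for Sod2 in HIIT males (0.040), HIIT females (0.014) and over the strata (0.0017), for Srxn1 (0.070) and Sod2 (-0.10) in the training of TG males and for Nqo1 between the sexes (0.049). Under the other settings no called gene reversed. In sedentary females, DESeq2 called 2 genes, limma voom 4 and the fit of only the groups compared 0, where the reported count is 1. In the training of TG males, limma voom called 5 and the fit without the 2 libraries of high blood level 1, where the reported count is 2. Averaged over sexes, limma voom called 6 for TG training and the reported count is 0. The shares of all genes called under these settings were not kept, so these counts have no background beside them. The library number as a covariate left 0 calls between the sexes in nTG sedentary mice. With plain library totals 6 genes were related to Nfe2l2 by Pearson's r, and 0 without the 2 farthest libraries, against 2.

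Leaving out each library gave 4 to 6 calls in sedentary males, 2 to 4 in HIIT males, 0 to 2 in sedentary females, 1 to 3 in HIIT females (1 without TG HIIT female replicate 3), 5 to 7 over the strata, 1 to 5 for training in TG males, 0 to 2 for TG training over sexes (2, Srxn1 and Sod2, without TG HIIT male replicate 4), 1 to 1 between the sexes in nTG sedentary mice and 0 to 0 in the other training comparisons and in the tests of differences between effects. The sex comparisons of the other 3 groups and the pathway and marker genes were not run under any alternative. The replicate block ended 3 calls, Srxn1 in HIIT females (0.26) and Gclm (0.12) and Txnrd1 (0.05) over the strata, and no other call of the 10 genes in the 16 comparisons refitted. Numbers did not pair the samples: correlations of same-numbered TG and nTG libraries ran from -0.14 to 0.20, and over 0.1 in 1, 1, 0 and 0 pairs of 7, 8, 8 and 6. The causes of these changes were not tested. Group sizes of 6 to 10 and the spread of Hmox1 and Gpx3 limit what could be detected.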

Other observations

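Marker lists of other cell types were also counted by genotype over the 4 strata, where 39% of all genes were called. Of 10 endothelial genes 0 were higher and 3 lower (median -0.06), and of 10 smooth muscle and pericyte genes 1 was higher and 1 lower (median -0.05). Of 6 measured genes of other leukocytes 1 was higher and 1 lower, and of 6 measured adipocyte genes 1 was higher and 1 lower. Of 8 measured blood genes 0 were higher and 3 lower over the strata (median -0.32), and in HIIT males 6 were lower. Of 10 skeletal muscle genes 3 were measured, and all 3 were called, 2 higher and 1 lower.

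The genes Gpx3 and Sod2 had the strongest negative relation of the 45 pairs among the 10 genes within groups (r = -0.59 over 64 libraries), and their extreme values met in TG HIIT male replicate 4. Pairs of Sod2 with Srxn1 (-0.38), Nqo1 (-0.31) and Hmox1 (-0.28) were also negative. These values carry no test, and all pairs share the same libraries and scaling.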
